A study of Mus musculus with 2 samples.

Results

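The genes of the cytosolic chaperonin CCT, also called TRiC, were followed in RAW264.7, a monocyte/macrophage cell line of the mouse. The members were the rows of the deposited gene table whose symbol was Tcp1, Cct2, Cct3, Cct4, Cct5, Cct6a, Cct7 or Cct8, and all 8 were found among the 24034 genes listed. The table covers 2 poly(A) RNA libraries: the SFRS8 siRNA library and the negative control library, both marked 5 d in their titles without a stated starting point. The target, SFRS8, is listed in the table as Sfswap and regulates alternative splicing. With 1 library per group there was no replicate, so no test between conditions was possible and no p-value was computed. The labels gave no siRNA sequence, dose or number of cultures.

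CCT is a cylinder of stacked rings in which each ring holds a single copy of every subunit in a fixed order. Each subunit binds ATP, and ATP hydrolysis closes a built-in lid over the substrate protein inside the cavity. Actin and tubulin depend on it to fold, as do many proteins with WD40 propellers. The hexameric chaperone prefoldin hands new actin and tubulin chains to CCT, and phosducin-like proteins act as cofactors.

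The libraries held 55411201 counts under the siRNA label and 54847367 under the control label. The siRNA-labelled library did not show less Sfswap, with 3.38 FPKM (fragments per kilobase of exon, scaled by the authors to library size) there and 2.92 FPKM in the control library, so the directions below are those of the library labels and not of a measured loss of Sfswap. All 12 macrophage markers were detected, with a median of 150 FPKM in the siRNA-labelled library and 160 FPKM in the control library. All 24 heart muscle markers were higher in the siRNA-labelled library, with 16504 counts there and 894 in the control library, and 12 of them were at 0 in the control library. The 5 red blood cell markers in the table summed to 423 counts (siRNA-labelled) and 6 counts (control), and the 9 fibroblast markers to 404 counts (siRNA-labelled) and 68 counts (control). Of these 9, 6 were higher in the siRNA-labelled library and 1 was at 0 in both. The 9 reached at most 0.26 FPKM (siRNA-labelled) and 0.24 FPKM (control). The part of these other transcripts in the differences below was not tested. In bulk RNA, fewer cells of a type and less RNA per cell cannot be told apart.

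Of the 8 CCT subunit genes, 7 were higher in the siRNA-labelled library and Cct7 was lower, though Cct5 lay below 0 once FPKM was centred on the median gene or adjusted for GC content, and Cct2 once adjusted for GC content. The differences of the 7 were small, and the largest was that of Cct8. Differences below are on the log2(FPKM + 1) scale, control library subtracted from siRNA-labelled library. The 8 subunits had a median of 0.23 on this scale, against 0.11 for the 10214 genes whose mean FPKM reached 1. Above 0 were 7 of the 8 subunits, or 87.5%, against 66.9% of those genes, and below 0 was 1 subunit, against 33.1% of those genes. After centring on the median gene, a shift of 0.13, the median of the subunits was 0.10, Cct5 lay at -0.07 and Cct7 at -0.39. At least 25% higher was 1 subunit, Cct8, against 22.0% of all genes, and 0 subunits were at least 20% lower, against 5.53% of all genes. Centred on the median gene, 0 subunits were at least 25% higher and 1, Cct7, was at least 20% lower, and with equal upper quartiles or the GC adjustment 0 were at least 25% higher. With a limit of 1.1-fold, 6 subunits counted as higher and 1 as lower, against 45.5% and 15.3% of all genes. No subunit reached 1.5-fold, which 4.91% of all genes passed upward and 2.18% downward, or 2-fold, which 1.18% passed upward and 0.783% downward.

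Cct2 and Cct5 were the most abundant subunits in both libraries. Coordinates of the genes are those deposited with the FPKM values, and the build is not given in the sources used here. Cct2 (ENSMUSG00000034024, the beta subunit, chromosome 10, 117051001 to 117063814, minus strand) stood at 293 FPKM in the siRNA-labelled library and 255 FPKM in the control library, with 45900 counts (siRNA-labelled) and 39568 counts (control). That is a difference of 0.20. Relative to the library totals, its counts had a ratio of 1.15, with a 95% exact interval of 1.12 to 1.18. Intervals here cover counting error only. Cct5 (ENSMUSG00000022234, epsilon, chromosome 15, 31590800 to 31601804, minus strand) stood at 199 FPKM in the siRNA-labelled and 189 FPKM in the control library, from 33680 counts (siRNA-labelled) and 31851 counts (control). Of the 7 higher subunits Cct5 differed least, by 0.07, with a ratio of 1.05 (1.01 to 1.08), and 43.6% of all genes had a smaller difference.

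Cct8, Cct4 and Tcp1 had the highest differences. Cct8 (ENSMUSG00000025613, theta, chromosome 16, 87483326 to 87495873, minus strand) had 67.4 FPKM in the siRNA-labelled library and 52.7 FPKM in the control library. Its difference was 0.35 and its ratio of counts 1.28 (1.21 to 1.35), from 12761 counts (siRNA-labelled) and 9895 counts (control), and 80.7% of all genes lay below it. Cct8 was thus just inside the limit of 25% higher, and Cct4 (ENSMUSG00000007739, delta, chromosome 11, 22990519 to 23003780, plus strand) was just outside it. Cct4 had 83.4 FPKM in the siRNA-labelled and 67.1 FPKM in the control library, a difference of 0.31 and a ratio of 1.24 (1.19 to 1.29). Tcp1 (ENSMUSG00000068039, the alpha subunit, the founding member of the family, chromosome 17, 12915701 to 12924556, plus strand) had 65.2 FPKM in the siRNA-labelled and 53.1 FPKM in the control library, a difference of 0.29 and a ratio of 1.23 (1.18 to 1.28). The counting intervals of these 3 ratios overlapped each other.

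Cct3 and Cct6a lay in the middle and had nearly the same difference. Cct3 (ENSMUSG00000001416, gamma, chromosome 3, 88297116 to 88321767, plus strand) stood at 57.1 FPKM in the siRNA-labelled library and 48.7 FPKM in the control library, a difference of 0.23 and a ratio of counts of 1.17 (1.13 to 1.22). Cct6a (ENSMUSG00000029447, zeta, chromosome 5, 129786998 to 129846371, plus strand) stood at 57.2 FPKM in the siRNA-labelled and 48.6 FPKM in the control library, a difference of 0.23 and a ratio of 1.18 (1.12 to 1.24). GENCODE vM21, whose gene identifiers the table uses, gives Cct6a no protein-coding transcript, while RefSeq lists the gene as protein-coding.

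Cct7 (ENSMUSG00000030007, eta, chromosome 6, 85451514 to 85468475, plus strand) was the subunit that went the other way. It stood at 76.2 FPKM in the siRNA-labelled library and 91.6 FPKM in the control library, with 31680 counts (siRNA-labelled) and 37718 counts (control). That is a difference of -0.26 and a ratio of counts of 0.83 (0.81 to 0.86), whose interval overlapped that of no other subunit. Of all genes, 7.24% had a lower difference than Cct7. Without Cct7, the summed counts of the other 7 subunits had a ratio of 1.16 (1.14 to 1.18), and with it the ratio was 1.09 (1.08 to 1.11).

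**Figure D1:**
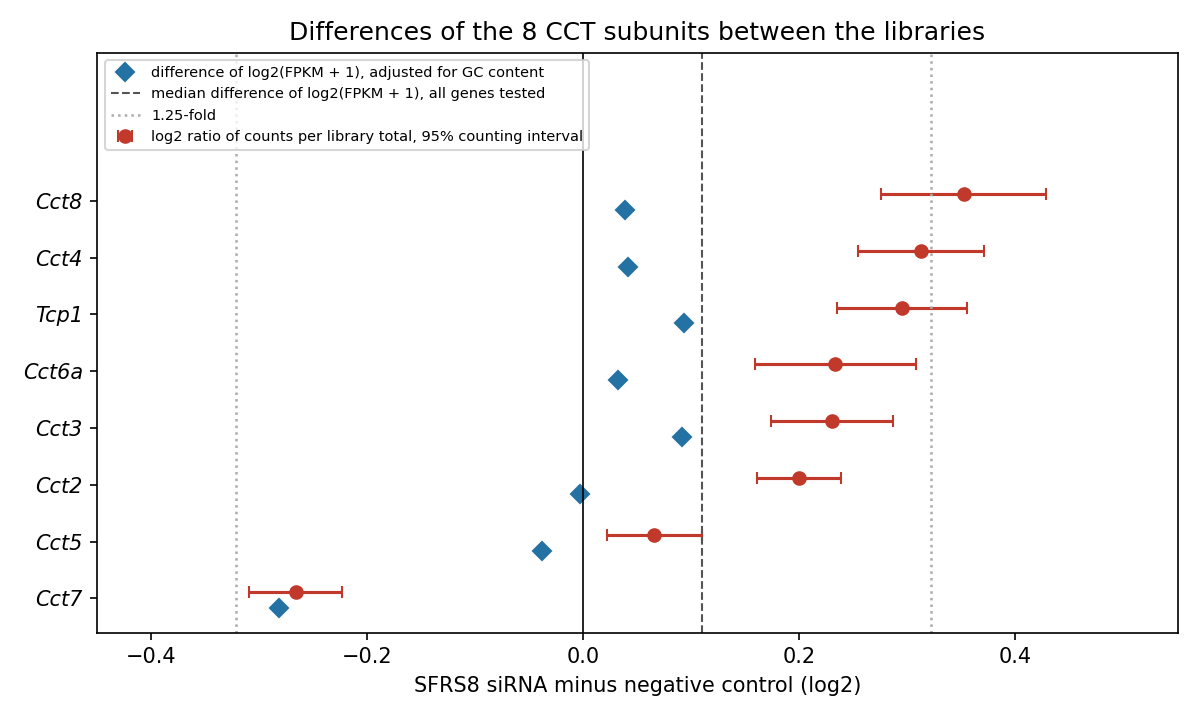
Log2 ratio of counts per library total (circles, with 95% exact counting intervals) and difference of log2(FPKM + 1) adjusted for GC content (diamonds) for each subunit, siRNA-labelled minus control, with 1 library per group. The dashed line is the median of all genes, 0.11, and the dotted lines mark 25% higher and 20% lower; Cct7 lies left of 0 on both measures, and the circles of the other 7 lie right of it.

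Genes as abundant as the subunits were less often higher than genes in general. The 722 genes with a mean between 52.9 and 274 FPKM, the range of the 8 subunits, had a median difference of -0.04, and 43.5% of them were above 0. Of these 722 genes, 6.37% were higher by 25% or more and 7.06% lower by 20% or more. This range was chosen after the values were seen.

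The differences of the subunits tended to be lower where the GC content of the transcript was higher, though not in strict order. Cct8 had the lowest GC content, 43.3%, and the highest difference, while Cct7 had the highest GC content, 54.0%, and the lowest difference. Between them lay Cct4 at 45.1%, Cct2 at 47.2%, Tcp1 and Cct6a both at 47.4%, Cct3 at 49.3% and Cct5 at 50.2%. Across the 8 subunits Spearman's rho was -0.86 and Pearson's r -0.92, and across the 7 without Cct7 they were -0.79 and -0.85. These are descriptions of 8 points that all come from the same pair of libraries. Across all 10214 genes rho was -0.47.

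After subtraction of the trend over all genes at the same GC content, 7 of the 8 subunits lay within 0.10 of 0, and Cct7 did not. Within the same band lay 39.9% of all 10214 genes and 38.9% of the 722 genes in the FPKM range of the subunits. The adjusted differences of the 7 ran from -0.04 for Cct5 to 0.09 for Tcp1, with Cct2 at -0.003, Cct8 at 0.04 and Cct4 at 0.04. Tcp1 at 0.093 and Cct3 at 0.091 lay near the edge of the band, so the number inside depends on its width. Cct7 remained at -0.28, against -0.26 without the adjustment, since the trend at its GC content was 0.02. The median of the 8 subunits was 0.03 after adjustment. The part that GC content played in these differences was not tested.

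**Figure D2:**
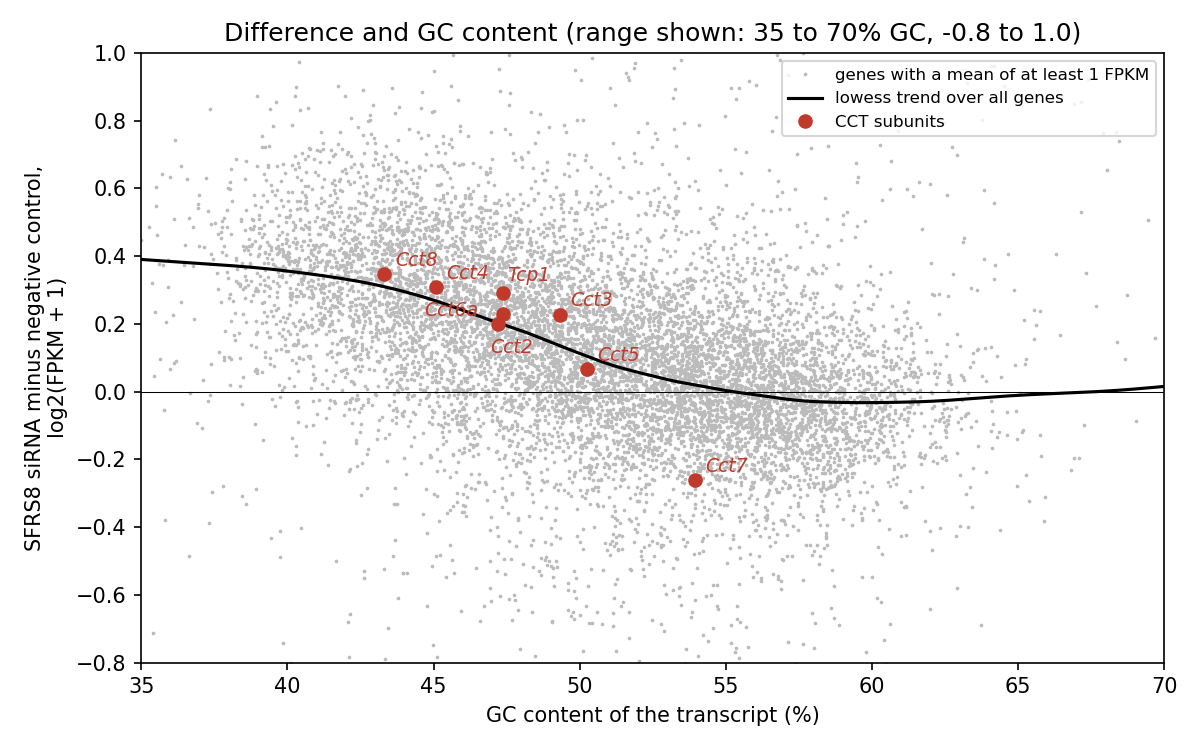
Difference between the siRNA-labelled and the control library on the log2(FPKM + 1) scale, against the GC content of the transcript in percent, for the 10214 genes measured (grey), with a lowess trend (line) and the 8 subunits (red). Cct8, Cct4, Cct2, Tcp1, Cct6a, Cct3 and Cct5 lie within 0.10 of the line, as do 39.9% of all genes, and Cct7 lies 0.28 below it.

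The subunits of a complex that holds them in equal number did not have equal transcript levels. In FPKM the highest subunit, Cct2, was 5.12-fold above the lowest, Cct3, in the siRNA-labelled library. In the control library Cct2 was 5.23-fold above the lowest, Cct6a. Cct2 and Cct5 together made up 54.7% of the summed FPKM of 898 in the siRNA-labelled library and 55.1% of the summed FPKM of 806 in the control library. An equal share would be 12.5% per subunit, and the other 6 subunits were each below it in FPKM. Per kilobase of the longest transcript without a retained intron, Cct2 and Cct5 made up 44.6% (siRNA-labelled) and 44.3% (control), and Cct7 was above the equal share too, with 13.9% (siRNA-labelled) and 18.3% (control).

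The order of the levels depended on the length by which counts were divided. Among 5875 genes with at least 5 FPKM, the ratio of count to FPKM followed the length of all annotated exons joined together within 1% in 99.8% of genes, and the length of the longest transcript without a retained intron in 2.30%. Exons of retained-intron transcripts, 5 of the 10 transcripts annotated for Cct3 and 3 of the 7 for Cct7, therefore lengthen the divisor. It was 6370 nt for Cct3, whose coding transcript has 1977 nt, and 6778 nt for Cct7, whose coding transcript has 2441 nt. For Cct2, with 0 retained-intron transcripts, the lengths were 2557 and 1959 nt. The ratio of a gene between the libraries does not depend on this length, since it is the same in both, but shares among the subunits do.

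Per kilobase of the longest transcript without a retained intron, Cct3 moved up in the order in both libraries, and Cct7 only in the siRNA-labelled library. Cct2 led with 423 read pairs per kilobase, scaled to equal library totals as in RPKM, in the siRNA-labelled library and 368 in the control library, followed by Cct5 with 328 (siRNA-labelled) and 313 (control). Cct7 came next with 234 (siRNA-labelled) and 282 (control), then Cct3 with 204 (siRNA-labelled) and 174 (control). Cct4 had 156 (siRNA-labelled) and 126 (control), and Tcp1 149 (siRNA-labelled) and 121 (control), and the counting intervals of this pair overlapped in each library. The lowest levels were those of Cct8, with 96.2 (siRNA-labelled) and 75.4 (control), and Cct6a, with 93.5 (siRNA-labelled) and 79.5 (control), and the intervals of this pair overlapped in each library too, so their order is not resolved. On this scale the highest subunit was 4.52-fold above the lowest in the siRNA-labelled library and 4.89-fold in the control library. With the length of each gene's first-numbered transcript in place of the longest, the shares of the summed level were 12.8% for Cct4, 12.6% for Cct7, 10.3% for Tcp1, 7.73% for Cct6a and 5.18% for Cct8 in the siRNA-labelled library. In the control library they were 11.4% for Cct4, 16.8% for Cct7, 9.26% for Tcp1, 7.26% for Cct6a and 4.48% for Cct8.

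**Figure D3:**
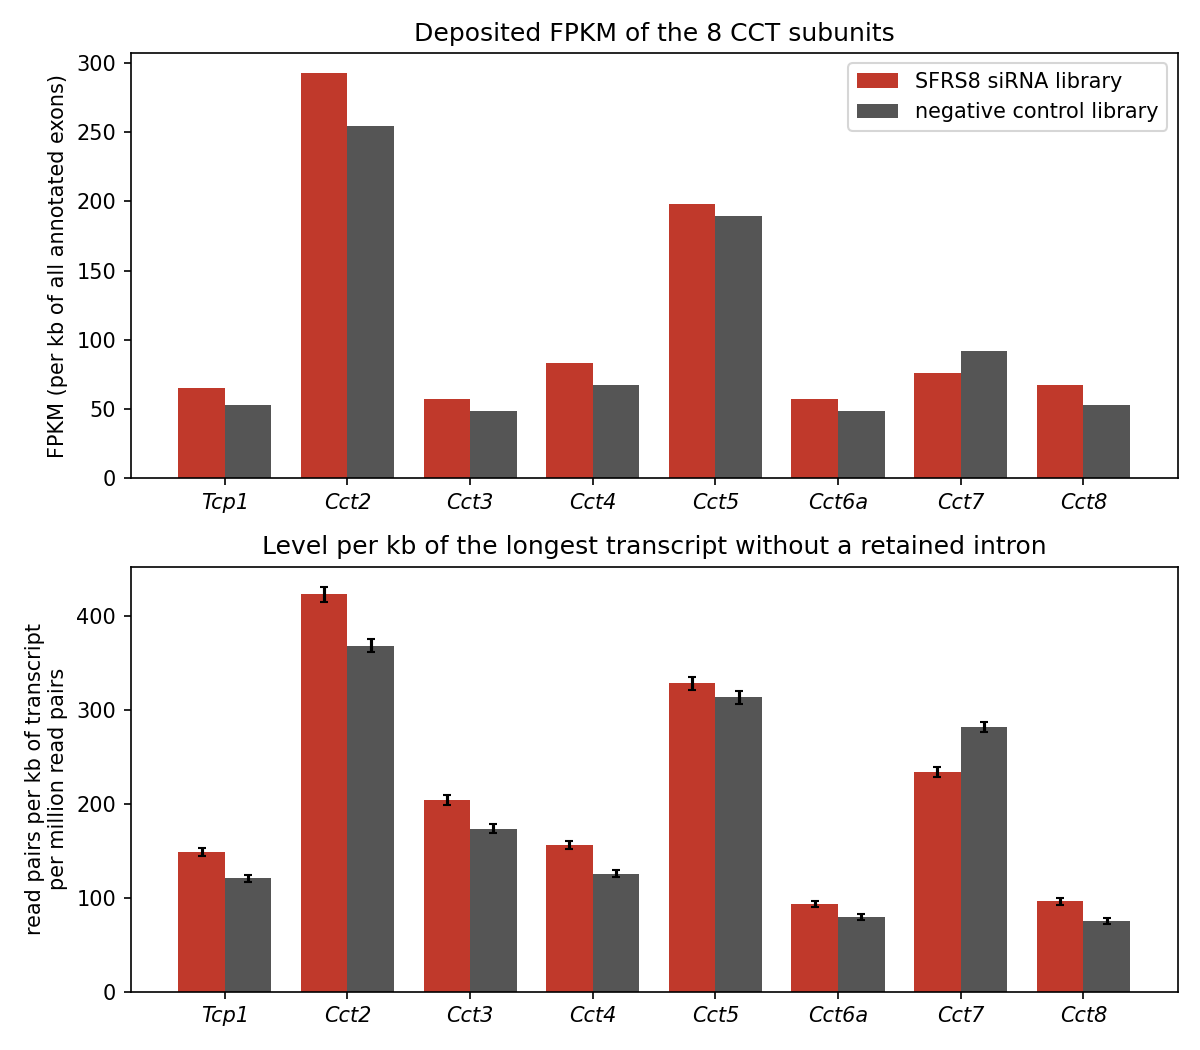
Levels of the 8 subunits in the siRNA-labelled (red) and control (grey) library, above as deposited FPKM and below as read pairs per kilobase of the longest transcript without a retained intron, scaled as in RPKM, with 95% Poisson counting intervals. Cct2 and Cct5 are highest on both scales, Cct3 is the lowest bar of the siRNA-labelled library only in FPKM, and Cct7 is the subunit whose red bar is the shorter one.

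The shares of the subunits in their summed transcripts, which no scaling of a whole library can change, differed most for Cct7. Of all read pairs assigned to the 8 genes, Cct7 held 15.8% in the siRNA-labelled library (95% exact interval 15.5 to 16.1%) and 20.7% in the control library (20.4 to 21.1%). Cct5 was the other subunit with a smaller share, with 16.8% (siRNA-labelled, interval 16.5 to 17.1%) and 17.5% (control, interval 17.2 to 17.9%), and its intervals did not overlap. Cct2 held 22.9% (siRNA-labelled) and 21.7% (control), Tcp1 10.03% (siRNA-labelled) and 8.93% (control), and Cct8 6.36% (siRNA-labelled) and 5.44% (control). As shares of the summed FPKM, Cct7 stood at 8.49% (siRNA-labelled) and 11.4% (control), a change of -2.87 percentage points. This change was -4.39 points per kilobase of the longest transcript without a retained intron and -4.14 points with the first-numbered transcript. In FPKM the change of Cct5 was -1.40 points, and those of the other 6 ran from 0.33 to 1.0 points.

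Promoter windows are shown for Cct7, the lower subunit, for Cct8, which had the highest difference, and for Cct6a, whose window held 3 of the searched motifs. The window of Tcp1, which is not shown, held 3 of them too. Windows run from 250 bases before to 50 after the start of the gene in RefSeq on GRCm38.p6. Of the 8 subunits, 7 had at least 1 such window, Cct2 and Cct5 having more than 1, and Cct4 had none. Capitals mark matches to the CCAAT box (CCAAT or ATTGG), the GC box (GGGCGG or CCGCCC), an ETS-type site (CCGGAAGT or ACTTCCGG) and a pair of heat shock units (GAANNTTC or TTCNNGAA), each searched on both strands; TGACGTCA, the cyclic AMP response element, was also searched.
Cct7 (chr6:85451255-85451554, plus strand): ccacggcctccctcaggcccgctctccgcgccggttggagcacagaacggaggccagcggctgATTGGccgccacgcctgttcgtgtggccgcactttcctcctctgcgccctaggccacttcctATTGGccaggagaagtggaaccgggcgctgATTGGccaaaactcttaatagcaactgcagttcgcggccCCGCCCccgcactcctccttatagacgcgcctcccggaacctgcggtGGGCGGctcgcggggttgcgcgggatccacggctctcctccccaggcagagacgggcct
Cct8 (chr16:87495820-87496119, minus strand): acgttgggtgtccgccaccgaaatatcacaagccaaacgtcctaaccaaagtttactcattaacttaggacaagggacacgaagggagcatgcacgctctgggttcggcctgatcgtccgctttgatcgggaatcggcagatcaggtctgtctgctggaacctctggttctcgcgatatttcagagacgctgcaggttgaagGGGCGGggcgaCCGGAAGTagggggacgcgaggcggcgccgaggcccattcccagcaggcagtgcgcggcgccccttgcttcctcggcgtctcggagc
Cct6a (chr5:129787106-129787405, plus strand): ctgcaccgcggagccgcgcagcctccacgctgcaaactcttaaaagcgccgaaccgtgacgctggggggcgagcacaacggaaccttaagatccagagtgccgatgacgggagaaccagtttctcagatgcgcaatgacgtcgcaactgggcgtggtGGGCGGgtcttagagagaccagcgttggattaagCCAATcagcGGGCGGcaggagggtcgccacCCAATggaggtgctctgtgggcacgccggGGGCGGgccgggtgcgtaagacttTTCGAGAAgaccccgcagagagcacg

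The window of Cct7 held 3 CCAAT boxes, all in the ATTGG orientation, the most among the subunits with a window. Of all 32851 windows in the table, 37.4% held at least 1 and 3.37% at least 3. Cct3 and Cct6a had 2 each, Tcp1 had 1, and none was found in the windows of Cct2, Cct5 and Cct8. GC boxes were found in 8 of the 9 subunit windows, against 35.7% of all windows; the exception was 1 of the 2 windows of Cct5. The ETS-type site was found in 2 of the 9, those of Cct8 and Tcp1, against 3.89% of all windows. The heat shock pair was found in 3 of the 9, 1 each of Cct2, Cct5 and Cct6a, against 15.1% of all windows, and TGACGTCA in 0 of the 9, against 1.79%. The matches in the windows shown did not overlap each other, and a match is a run of letters, not a measured binding site.

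Tcp1, Cct6a, Cct7 and Cct8 overlap genes on the opposite strand. Whether the counting used strand is not given in the sources used here, so reads of such pairs cannot be told apart with certainty. Pradc1, whose start overlaps that of Cct7 by 457 bases, had 238 counts in the siRNA-labelled library and 358 in the control library, a ratio of 0.66 (0.47 to 0.92). Psph, which encodes phosphoserine phosphatase of serine synthesis, overlaps the start of Cct6a by 452 bases and had 4065 counts (siRNA-labelled) and 3311 counts (control), a ratio of 1.21 (1.11 to 1.33). Mrpl18, a protein of the mitochondrial ribosome, overlaps the start of Tcp1 by 645 bases and had 3904 counts (siRNA-labelled) and 3257 counts (control), a ratio of 1.19 (1.08 to 1.304). Usp16, a deubiquitinase gene that meets the end of Cct8, had a mean below 1 FPKM, with 466 counts (siRNA-labelled) and 312 counts (control) (1.47, 1.095 to 1.99). Acat3, at the end of Tcp1, also had a mean below 1 FPKM, with 64 counts (siRNA-labelled) and 183 counts (control) (0.34, 0.18 to 0.62). These partners had fewer counts than the subunit they overlap. Cct2, Cct3, Cct4 and Cct5 overlapped no other gene of the table.

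Small nucleolar RNA genes that lie within Tcp1 and Cct6a on the same strand were near 0. Snora15, within Cct6a, had 8 counts in the siRNA-labelled library and 7 in the control library, and Snora20, within Tcp1, had 6 (siRNA-labelled) and 1 (control). At about 4 counts per read pair these rest on at most 2 read pairs per library, and most such RNAs are not polyadenylated. Of 11 processed pseudogenes that matched a subunit transcript over at least 100 nt, 3 were measured here, with 0 counts in the siRNA-labelled library and at most 4 in the control library. The 4 counts were those of Gm11516, a copy of Cct3, which itself had 22324 counts (siRNA-labelled) and 18842 counts (control). The longest match of any of the 11 copies was at most 93.5% identical to its subunit.

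Among relatives of CCT, the mitochondrial chaperonin was expressed at levels like those of the subunits. Hspd1 (HSP60, which forms the mitochondrial folding chamber) stood at 146 FPKM in the siRNA-labelled library and 101 FPKM in the control library, a difference of 0.54 and a ratio of counts of 1.45 (1.40 to 1.51). Its interval lay above those of all 8 CCT subunits, and 0.32 remained after the GC adjustment. Its lid Hspe1 (HSP10) stood at 164 FPKM (siRNA-labelled) and 157 FPKM (control), a ratio of 1.04 (0.996 to 1.09). Cct6b, a second zeta gene used mainly in testis, had 21 counts (siRNA-labelled) and 17 counts (control). That is 0.18 FPKM (siRNA-labelled) and 0.15 FPKM (control). Of 10 testis germ cell markers, 3 were among the genes listed, with a sum of 71 counts in each library and 1 at 0 in both. Together with Cct6b, the relatives Cct8l1, Mkks, Bbs10 and Bbs12 all had a mean below 1 FPKM.

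Some prefoldin genes and cofactors had larger differences than any subunit. Of those named here, only Uri1 had a counting interval of its ratio above that of Cct8, 1.21 to 1.35. Of 6 prefoldin genes, 4 were above 0 and 2 at least 25% higher, with a median of 0.08. For this and the next lists, the shares of all genes were 66.9% above 0 and 22.0% at least 25% higher. Vbp1, the prefoldin 3 subunit, stood at 8.02 FPKM in the siRNA-labelled library and 5.17 FPKM in the control library, and Pfdn4 at 12.2 FPKM (siRNA-labelled) and 9.22 FPKM (control). Vbp1 had a ratio of counts of 1.54 (1.27 to 1.88) and Pfdn4 one of 1.32 (1.15 to 1.52). After the GC adjustment 0.16 remained for Vbp1 and 0.01 for Pfdn4. The most abundant, Pfdn5, stood at 209 FPKM (siRNA-labelled) and 232 FPKM (control), a difference of -0.15. All 3 measured phosducin-like genes were above 0, with a median of 0.28 that became -0.01 after the GC adjustment, and Pdcl, a cofactor in the assembly of G protein beta subunits, stood at 5.64 FPKM (siRNA-labelled) and 3.80 FPKM (control). Pdcl3, the most abundant of them, stood at 8.19 FPKM (siRNA-labelled) and 6.58 FPKM (control). In the list of prefoldin-like and R2TP genes, 6 of 7 were above 0 and 2 at least 25% higher, with a median of 0.09. Uri1 stood at 6.25 FPKM (siRNA-labelled) and 3.54 FPKM (control) there and Rpap3 at 4.22 FPKM (siRNA-labelled) and 2.95 FPKM (control), while Ruvbl2, an AAA ATPase, differed by 0.01. Uri1 had a ratio of counts of 1.76 (1.47 to 2.11) and Rpap3 one of 1.43 (1.15 to 1.78). After the GC adjustment 0.42 remained for Uri1 and 0.23 for Rpap3.

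Tubulin genes, the first of the main clients, had a median below that of all genes. The median was -0.04, with 5 of 12 above 0 and none at least 25% higher or at least 20% lower. Of all genes, 66.9% were above 0, 22.0% at least 25% higher and 5.53% at least 20% lower. Tubb5, the most abundant of them, stood at 626 FPKM in the siRNA-labelled library and 671 FPKM in the control library. Tubb4b stood at 61.1 FPKM (siRNA-labelled) and 49.4 FPKM (control) and Tubb2b at 3.39 FPKM (siRNA-labelled) and 4.02 FPKM (control). Of 6 actins and actin-related genes, 3 were above 0, 2 at least 25% higher and 1 at least 20% lower, with a median of 0.04. That is below the 0.11 of all genes, but without the filter on FPKM the actin list had 0.044 and all genes 0.021. Actb (beta actin) stood at 286 FPKM (siRNA-labelled) and 297 FPKM (control), Actr2 (ARP2, which nucleates actin branches) at 29.4 FPKM (siRNA-labelled) and 19.9 FPKM (control) and Actr1a (centractin of the dynactin complex) at 32.3 FPKM (siRNA-labelled) and 51.3 FPKM (control).

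The WD40 clients and the tubulin cofactors lay near the median of all genes. Of 9 WD40 genes, 6 were above 0, against 66.9% of all genes, with a median of 0.08. Gnb2, a G protein beta subunit, stood at 104 FPKM in the siRNA-labelled library and 96.5 FPKM in the control library. Ppp2r2a, a regulatory subunit of protein phosphatase 2A, stood at 14.8 FPKM (siRNA-labelled) and 10.2 FPKM (control) and Mlst8, a component of mTOR complexes, at 3.11 FPKM (siRNA-labelled) and 4.52 FPKM (control). Of 6 tubulin folding cofactors, 3 were above 0, with a median of 0.07; Tbce stood at 3.29 FPKM (siRNA-labelled) and 1.94 FPKM (control), Tbcd at 8.16 FPKM (siRNA-labelled) and 9.47 FPKM (control) and Tbca at 166 FPKM (siRNA-labelled) and 149 FPKM (control). Among 6 other listed clients the median was 0.18, with Plk1, a mitotic kinase, at 18.4 FPKM (siRNA-labelled) and 13.8 FPKM (control), Ppp4c at 26.0 FPKM (siRNA-labelled) and 21.4 FPKM (control) and Vhl, which targets hypoxia-inducible factors for destruction, at 7.72 FPKM (siRNA-labelled) and 10.1 FPKM (control).

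The subunits of CCT were set beside the core of the proteasome, another ring assembly with subunits in equal number, and beside the cytosolic heat shock chaperones. The 14 genes of the proteasome core had a median of 0.09, with 10 above 0, 2 at least 25% higher and none at least 20% lower. Psma4 stood at 38.9 FPKM in the siRNA-labelled library and 27.6 FPKM in the control library, Psma3 at 15.9 FPKM (siRNA-labelled) and 12.4 FPKM (control) and Psma6, the most abundant, at 239 FPKM (siRNA-labelled) and 217 FPKM (control). The 26 measured heat shock chaperones and cochaperones had a median of 0.18, with 20 above 0, 9 at least 25% higher and 2 at least 20% lower. For both lists, the shares of all genes were 66.9% above 0, 22.0% at least 25% higher and 5.53% at least 20% lower. Dnaja1, an HSP40, stood at 6.41 FPKM (siRNA-labelled) and 3.36 FPKM (control), Hspa1a, a stress-inducible HSP70, at 4.90 FPKM (siRNA-labelled) and 11.3 FPKM (control) and Hsp90ab1, the constitutive HSP90, at 1043 FPKM (siRNA-labelled) and 1082 FPKM (control). Hspa1b, in the same list, was more abundant than Hspa1a, at 39.5 FPKM (siRNA-labelled) and 51.1 FPKM (control), a ratio of counts of 0.77 (0.72 to 0.82). The CCT median of 0.23 was the highest of the 3 on the main scale, but not without the filter on FPKM, where the heat shock list had 0.2293 and CCT 0.2284. After the GC adjustment the medians were 0.03 for CCT, -0.06 for the proteasome core and 0.06 for the heat shock list. No test of a difference between these lists was made.

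**Figure D4:**
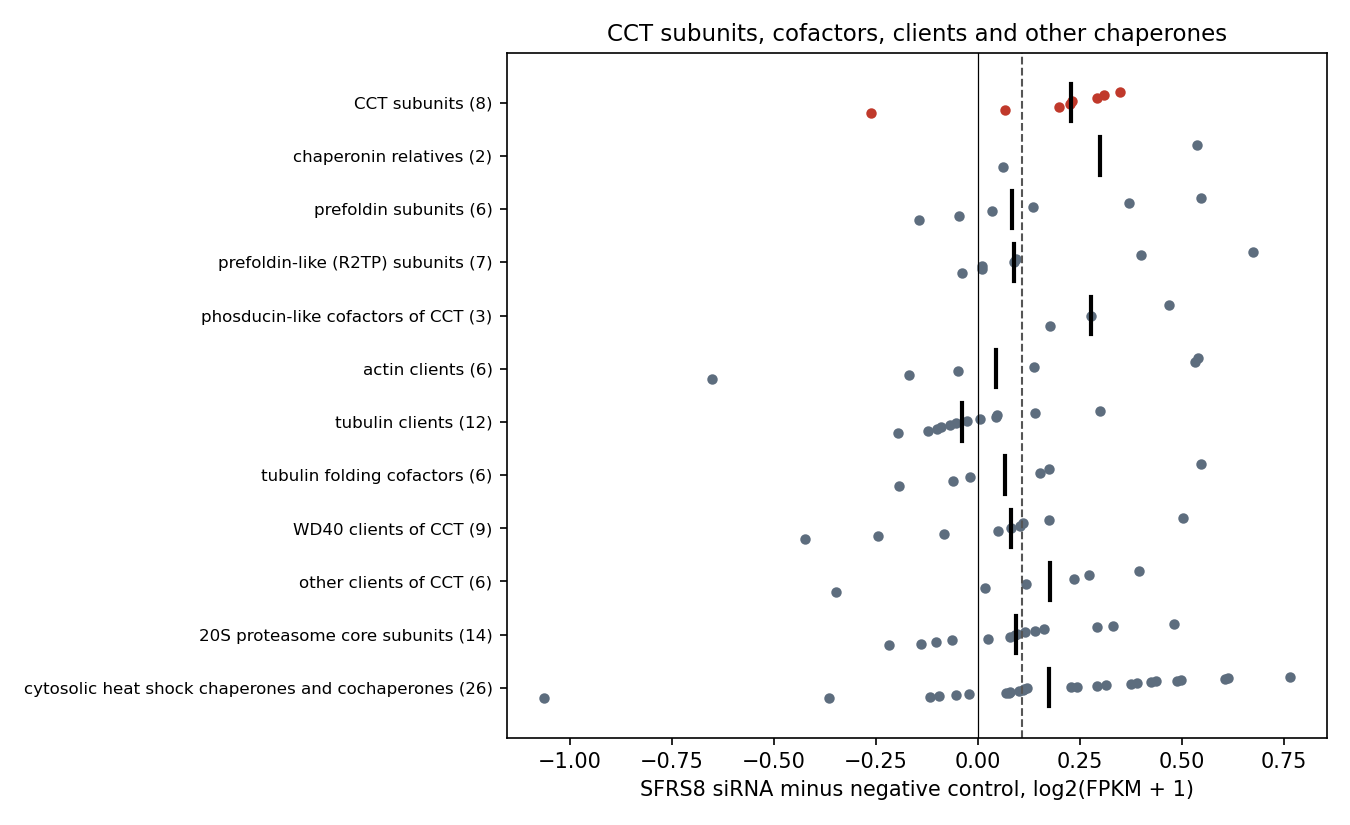
Difference between the siRNA-labelled and the control library on the log2(FPKM + 1) scale, for each measured gene of the CCT subunits (red) and of the lists around them (grey-blue), with the number of genes in parentheses, the list median as a black bar and the median of all genes, 0.11, as a dashed line. The subunits other than Cct7 lie between 0.07 and 0.35, while the heat shock list runs from -1.06 to 0.77.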

How the data were processed

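Per the labels' protocols, poly(A) RNA of 1 library per group was read from both ends on a NovaSeq sequencer. HISAT2 2.0 and StringTie 1.3.0 stand in the submitters' processing notes. Build, annotation and strandedness: not given in the sources used here. The deposited FPKM values were normalised for length and library size by the authors, per the file headers. The deposited estimated counts are whole numbers, but 45.1% and 42.7% of counts from 1 to 20 were multiples of 4 in the siRNA-labelled and control library, so 4 counts were taken as 1 read pair. Most of these low counts were not multiples of 4, so this divisor is an assumption, and the width of all counting intervals rests on it. The subunits had 2474 to 11475 read pairs per library. Columns were matched by name, and 0 were left unmatched.

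The measure was the difference of log2(FPKM + 1) for genes averaging 1 FPKM or more, and the pseudocount of 1 shrinks differences of low genes. Genes were counted by size (1.25-fold, that is 25% higher or 20% lower, and 2-fold), with no test. Intervals are exact Clopper-Pearson limits at the 95% level on read pairs, or Poisson limits for levels. GC content was that of the longest GENCODE vM21 transcript without a retained intron, protein-coding where one exists, and its trend a lowess with a span of 0.3. Copies were sought with blastn 2.17.0 (identity of 80% or more across 100 nt or more). Promoter sequences are those of RefSeq.

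The members and gene lists were chosen with earlier results of these data known. Named were the 8 subunits, Cct6b, Sfswap and, per list, the most abundant member and the 2 that differed most. Hspa1b was named in addition, beside Hspa1a. Overlapping genes, snoRNA genes and motifs were chosen after the values were seen. Alternatives tried were other pseudocounts, scalings, filters and fold limits, the GC adjustment and counts summed with copies. The scripts were tested on simulated data. The tools were Python 3.11.15, statsmodels 0.14.6, scipy 1.17.1, pandas 2.3.3, numpy 2.4.6 and matplotlib 3.10.9.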

Additional observations from a re-analysis of the deposited data

How the results depend on the processing

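Cct7 was below 0 under all 10 alternatives, from -0.39 with FPKM centred on the median gene to -0.22 with FPKM rescaled to an equal sum, and Tcp1, Cct3, Cct4, Cct6a and Cct8 were above 0 under all 10. Cct5 was below 0 when centred on the median gene (-0.07) and after the GC adjustment (-0.04), and Cct2 after the GC adjustment. The median of the 8 subunits was 0.10 with centring on the median gene, which shifts all genes by 0.13, 0.19 with equal upper quartiles, 0.035 with the GC adjustment and 0.28 with FPKM rescaled to an equal sum, the last chosen after the data were seen. The number of subunits at least 25% higher, 1 as reported, was 0 under centring, upper quartiles and the GC adjustment and 3 with FPKM rescaled to an equal sum. It was 6 at a limit of 1.1-fold and 0 at 1.5-fold and 2-fold. The number at least 20% lower, 0 as reported, was 1 (Cct7) under centring and 1 at a limit of 1.1-fold. The log2 ratio of the summed levels, 0.16 in FPKM, was 0.13 in counts scaled by library total, with and without copies, and also per kilobase of the longest transcript without a retained intron. It was 0.023 with centring, 0.11 with upper quartiles and 0.20 with FPKM rescaled to an equal sum. The cause of these shifts was not tested beyond the scalings themselves. No paired analysis was possible because each group has 1 library, and for the same reason no replicate could be left out. Differences smaller than the counting intervals of a subunit are not resolved at this depth, and the spread between cultures is unknown.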
